A study of Mus musculus with 2 samples.

Results

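The genes described are 44 of the 31053 in the count tables: the subunits of respiratory complexes II, III, IV and V, and cytochrome c. They were taken from a list of gene symbols, and every symbol was in both tables. Nuclear DNA encodes 38 of them and mitochondrial DNA encodes 6. Complex II has 4 members, complex III 10, cytochrome c 1, complex IV 13 and complex V 16. Complex I, the enzyme that metformin is known to inhibit, is not among them and is used only for comparison.

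Complexes II, III and IV pass electrons along the inner mitochondrial membrane to oxygen, complexes III and IV pump protons as they do so, and complex V uses the returning protons to make ATP. Complex II (succinate dehydrogenase) is also an enzyme of the tricarboxylic acid cycle and is built from nuclear genes alone, whereas complexes III, IV and V each join nuclear subunits to subunits made inside the mitochondrion. Activated and dividing lymphocytes are known for making more mitochondria, and inflammatory macrophages for leaning on glycolysis.

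The samples are 2 single-cell libraries, made with the 10x 3′ v3 kit, of cells sorted for high CD45 (the surface protein of leukocytes) from the dissected tumour region of mouse brain. All mice were C57BL/6, all carried GL261 glioma cells injected into the brain, and all brains were taken on day 20. One library came from mice that drank control water and the other from mice whose drinking water held metformin, a biguanide used against diabetes. The labels used here do not give the number of mice in a library, their sex, the dose of metformin or its duration. With 1 library per group there is no replicate: no difference between the libraries was tested, mice and libraries cannot be told apart from treatment, and every interval below is a 95% interval for counting error alone (exact Poisson for a level, exact conditional for a ratio, Clopper-Pearson for a share).

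After filters, 5373 control and 4569 metformin cells remained, with medians of 7295 and 7926 UMIs (unique molecular identifiers, each counting 1 captured RNA molecule). Nuclear members held 1.1% of control and 1.2% of metformin UMIs, and mitochondrial members 3.11% and 3.18%. Cells were clustered without the members among the clustering genes. Of 32 classes, 20 had at least 50 cells in each library and are compared here, with 5041 control and 4263 metformin cells. Marker genes named 13 of the 20, each to be read as "like" that type (CD8 T-like, microglia-like), and the other 7 are called by leading genes. The defining markers of microglia (13 of 13) were detected in 4 of those 7, the C4b/Ccl12, C4b/Crybb1, Tnf/Cd83 and Il1a/Hmox1 clusters, so the sort for high CD45 held many cells with microglial genes. Gene places are on GRCm38 (GENCODE M21), as chromosome:start-end. Levels are UMIs per 1000000 UMIs of the class (CPM), and a ratio is metformin CPM over control CPM.

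Upstream stretches of 4 nuclear members are shown, from cytochrome c and complexes II and III, because each holds a word bound by a factor known to act on respiratory genes. They come from RefSeq promoters on GRCm38.p6, 80 bases each, 5′ to 3′ on the gene's strand, upstream of every annotated exon of the gene. Capitals mark the word. In Cycs, cytochrome c, at chr6:50566570-50566649 on the minus strand, it is the word of NRF1 (nuclear respiratory factor 1). In Sdhd, a membrane anchor of complex II, at chr9:50603850-50603929 on the minus strand, it is an ETS word, the kind bound by GABP (nuclear respiratory factor 2). ETS words are also marked in 2 small subunits of complex III: Uqcrh, at chr4:116075072-116075151 on the minus strand, and Uqcr11, at chr10:80406831-80406910 on the minus strand.
Cycs: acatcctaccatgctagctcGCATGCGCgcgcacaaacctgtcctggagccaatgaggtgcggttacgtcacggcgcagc
Sdhd: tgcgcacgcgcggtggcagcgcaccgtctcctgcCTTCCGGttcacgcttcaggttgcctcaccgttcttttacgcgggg
Uqcrh: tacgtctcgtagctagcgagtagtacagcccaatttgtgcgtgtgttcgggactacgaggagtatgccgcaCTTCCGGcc
Uqcr11: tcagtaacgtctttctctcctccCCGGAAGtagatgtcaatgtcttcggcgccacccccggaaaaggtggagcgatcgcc

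Promoters were matched for 30 of the 38 nuclear members, and the 250 bases before each start were searched on both strands. The NRF1 word GCATGCGC (or its reverse complement GCGCATGC) stood in 6 of the 30, or 20%, against 2.56% of the 27025 genes with a promoter in the table. Those 6 were Sdhb, Cycs, Cox6a1, Atp5g2, Atp5k and Atp5l. The ETS word CCGGAAG (or CTTCCGG) stood in 9, or 30%, against 7.83% of all genes: Sdhd, Uqcrh, Uqcr11, Cox6a1, Cox6b1, Atp5e, Atp5h, Atp5j and Atp5l. The YY1 word AAGATGGC (or GCCATCTT) stood in Atp5j alone, which is 3.33% against 1.83%. In all, 13 of the 30 held an NRF1 or an ETS word and 2, Cox6a1 and Atp5l, held both. These are matches of letters and say nothing of binding in these cells.

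Across cell classes the nuclear members were highest in dividing lymphocytes and in CD8 and CD4 conventional T cells and lowest in microglial cells, with a nearly 3-fold range. Their summed level was 15903 CPM in control and 17175 CPM in metformin cycling lymphocytes, and 14229 and 15542 CPM in CD8 T cells. CD4 conventional T cells (14151 and 14862 CPM) came next, and classical monocytes had 13827 CPM in control but 12501 in metformin. NK cells, regulatory T cells, macrophages, the Hilpda/Nr4a2 T cluster and conventional dendritic cells lay between 12125 and 12781 CPM in control and between 12653 and 14347 CPM in metformin. Naive T cells (8780 and 8864 CPM) and B cells (9722 and 10228 CPM) were the lowest named lymphocytes. Microglia held 6486 and 6389 CPM, and the Il1a/Hmox1 cluster was lowest of all with 5550 and 6189 CPM. The gap between the top and bottom of this order exceeded any gap between the libraries within a class, but neighbours in it, such as CD8 and CD4 T cells in control, often differed by less than the libraries did.

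**Figure D1:**
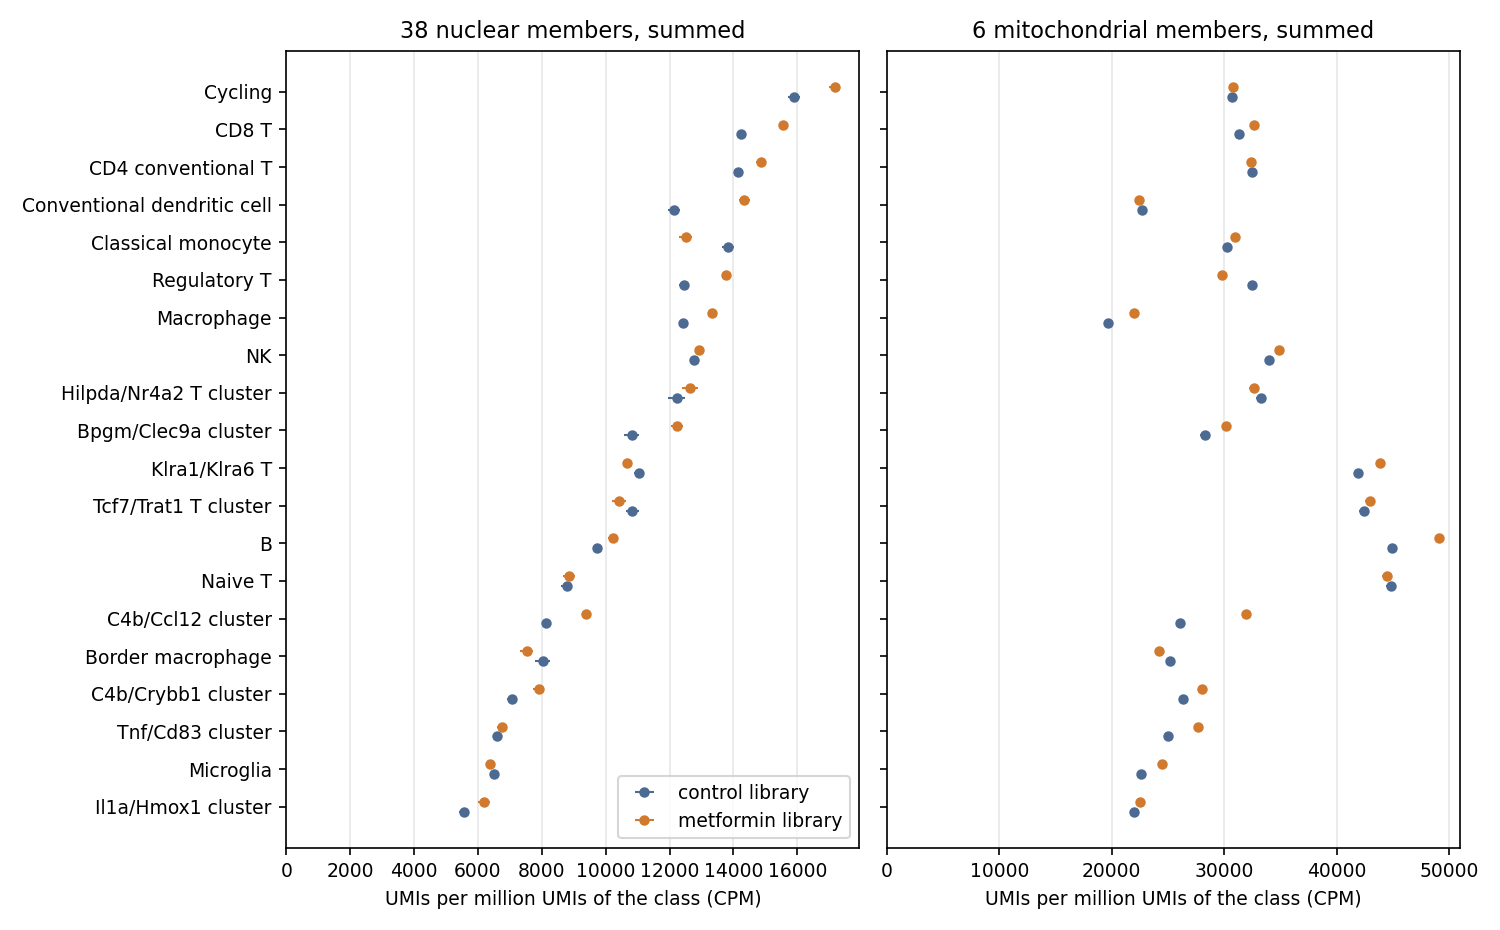
Summed level of the 38 nuclear members and of the 6 mitochondrial members (x axes, CPM, from 0) in the 20 compared cell classes (y axis), ordered by the nuclear sum. Blue points are the control library, orange points the metformin library, and bars 95% Poisson intervals for counting error. The nuclear sum runs from 5550 CPM in the control Il1a/Hmox1 cluster to 17175 CPM in metformin cycling cells, and the mitochondrial sum follows another order, with B and naive T cells at its top and macrophages near its foot.

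The mitochondrially encoded members followed a different order. Their sum was highest in B cells (44976 and 49161 CPM) and naive T cells (44805 and 44490 CPM), which were low for nuclear members. It was lowest in macrophages (19622 CPM in control and 21968 in metformin), the Il1a/Hmox1 cluster, conventional dendritic cells (22734 and 22422) and microglia (22587 and 24502). Over the 20 classes the Pearson correlation of the mitochondrial sum with the nuclear sum was 0.25, given as a description because the classes share libraries. The mitochondrial sum also had a correlation of -0.49 with the median UMIs per cell of a class, against 0.31 for the nuclear sum; the part of depth in these orders was not tested.

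Within each complex, the number of mitochondrial UMIs per nuclear UMI spread over about 3-fold to over 4-fold. For complex III, which has 1 mitochondrial member (mt-Cytb, the cytochrome b that carries electrons between its quinone sites), it was 0.667 in control and 0.792 in metformin macrophages, and 2.97 and 2.87 in naive T cells. For complex IV, whose catalytic core is mitochondrial, macrophages had 2.74 and 2.83 and naive T cells 9.25 and 8.98. For complex V it was 0.905 and 0.961 in macrophages and 3.28 and 3.31 in naive T cells. So macrophages stood at or near the low end and naive T cells at or near the high end for all 3 complexes; in metformin the conventional dendritic cells were at or below macrophages for each of them. Regulatory T cells had lower values in metformin than in control for each complex: 1.32 against 0.977 for complex III, 4.55 against 3.82 for complex IV and 1.64 against 1.36 for complex V. The filter that removes barcodes over 10% mitochondrial UMIs acts on these ratios, and with a limit of 5% only 3 of 17 classes exceeded 3 mitochondrial UMIs per nuclear UMI, against 10 of 20 with the limit of 10%.

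**Figure D2:**
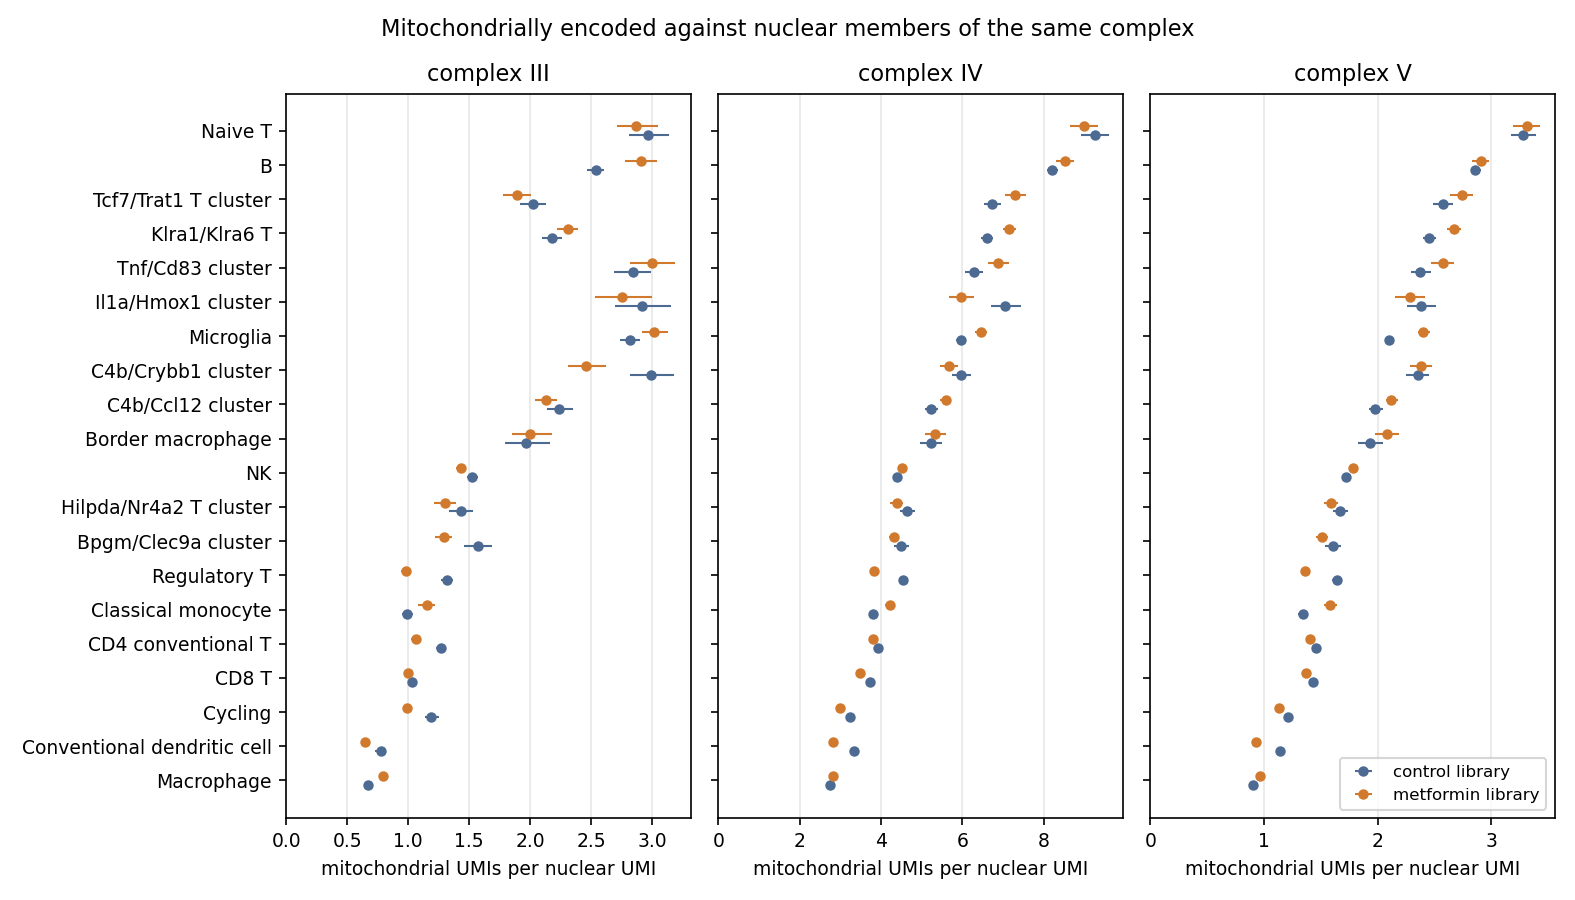
Mitochondrial UMIs per nuclear UMI (x axes, from 0) for complexes III, IV and V in 20 cell classes (y axis), control in blue and metformin in orange, with 95% counting intervals. Macrophages, conventional dendritic cells and cycling cells sit at the low end of each panel and naive T and B cells at the high end of complexes IV and V. For complex III the microglia and the Tnf/Cd83 and Il1a/Hmox1 clusters lie near naive T cells in both libraries. The C4b/Crybb1 cluster does so in control alone (2.99, against 2.46 in metformin), and the C4b/Ccl12 cluster lies lower (2.24 and 2.13).

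Among the sums of nuclear members per complex, complex II was the flattest across classes, though complex III was close to it in control. The complex II sum ran from 193 CPM in control and 231 CPM in metformin naive T cells to 424 and 430 CPM in cycling cells. In metformin the Il1a/Hmox1 cluster was slightly lower than naive T cells, at 227 CPM (216 in control). Sdha, the flavoprotein that oxidises succinate (13:74322254-74350280, minus strand), had the smallest spread of all 44 members, with a 1.43-fold ratio between its highest and lowest class. Its level was 104 CPM in control and 88.8 in metformin microglia, 94.8 and 90.9 in NK cells, 84.6 and 84.5 in B cells and 76.6 and 71.4 in macrophages. Sdha thus did not follow the low nuclear sum of microglia, and its correlation with the other nuclear members across the 20 classes was 0.15. Complex II accordingly made up 4.83% of nuclear member UMIs in control and 4.35% in metformin microglia, against 2.03% and 2.32% in CD4 conventional T cells.

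The other complex II members moved more. Sdhb, the iron-sulfur subunit, was at 176 and 183 CPM in cycling cells, 132 and 154 in macrophages, 123 and 131 in CD8 T cells and 65.1 and 86.3 in B cells. Sdhd, the anchor whose start is printed above, was at 127 CPM in control and 103 in metformin classical monocytes and at 117 and 121 in macrophages, above every lymphocyte class (naive T cells: 34.9 and 53.9). Sdhc, the other anchor, stayed between 29 and 64.3 CPM over the control B, CD8 T, NK, macrophage and microglia classes and reached the minimum of 50 CPM in only 8 of 20 classes. Macrophages and classical monocytes thus held more of both Sdhb and Sdhd than B and naive T cells did, in either library.

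In complex III, Uqcrh, the acidic hinge protein that helps cytochrome c dock, was highest in T cells. It stood at 946 CPM in control and 912 in metformin CD8 T cells, 796 and 823 in NK cells, 662 and 645 in B cells, 458 and 448 in macrophages and 341 and 324 in microglia. The gene has 2 annotated pseudogenes named after it, and reads shared with them would be uncertain. Cyc1, cytochrome c1, which hands electrons to cytochrome c, ranged from 50.9 and 53.7 CPM in border macrophages to 146 and 143 in cycling cells. Uqcr10, a small subunit, had one of the 8 widest spreads (4.16-fold), from 72.4 and 92.1 CPM in the Il1a/Hmox1 cluster to 341 and 338 CPM in cycling cells. Uqcrq and Uqcrb, also small subunits, were instead highest in myeloid cells: Uqcrq at 339 and 366 CPM in macrophages and Uqcrb at 269 and 341 CPM in conventional dendritic cells. In control mt-Cytb was highest in naive T cells (4515 CPM, against 4339 in metformin), but in metformin B cells were above naive T cells. mt-Cytb was lowest in control macrophages (1226 CPM, against 1556 in metformin) and metformin dendritic cells (1328 CPM, against 1382 in control). Its correlation with the nuclear members across classes was -0.47.

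Cytochrome c, the carrier between complexes III and IV and a trigger of apoptosis once released, had the widest spread of all members. Cycs (6:50562563-50566538, minus strand) was at 407 CPM in control and 577 CPM in metformin conventional dendritic cells, 395 and 349 in classical monocytes and 306 and 303 in cycling cells. It was at 223 and 227 CPM in CD4 conventional T cells, 217 and 207 in NK cells, 213 and 227 in macrophages, 180 and 174 in CD8 T cells and 112 and 120 in B cells. Microglia were lowest with 61.7 and 62 CPM, 7.84-fold below dendritic cells over both libraries, and the C4b/Crybb1 cluster was beside them with 55.7 and 69.9. The 4 clusters with microglial markers were not alike, since the Il1a/Hmox1 cluster had 147 and 133 CPM of Cycs although its nuclear sum was the lowest. Cycs has 2 annotated pseudogenes named after it.

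The nuclear subunits of complex IV were highest in cycling cells (6079 and 6800 CPM) and CD8 T cells (5488 and 6118) and lowest in the Il1a/Hmox1 cluster (1942 and 2361) and microglia (2314 and 2283), whose order differed between the libraries. Cox5a, a subunit on the matrix side of the enzyme, had the second widest spread of all members, 5.69-fold. It stood at 547 and 622 CPM in cycling cells, 434 and 516 in CD8 T cells, 386 and 408 in macrophages, 208 and 223 in B cells, 104 and 107 in microglia and 109 and 96 in the Tnf/Cd83 cluster. Cox4i1, the largest nuclear subunit and a site of regulation by ATP, spread 1.95-fold, from 429 and 494 CPM in the Il1a/Hmox1 cluster to 874 and 923 CPM in CD8 T cells. These subunits of the same enzyme thus spread unequally across classes. Cox6c was at 715 and 797 CPM in CD8 T cells and 221 and 236 in microglia, Cox7c at 702 and 794 and at 289 and 312, and Cox8a at 983 and 1014 and at 429 and 399. Macrophages had the largest part of their nuclear member UMIs in complex IV (41.0% and 40.5%), with Cox8a at 1022 and 1058 CPM. Of the catalytic subunits made in the mitochondrion, mt-Co1, which holds the oxygen-reducing site, was at 9868 and 10743 CPM in B cells, 7361 and 7908 in CD8 T cells, 6249 and 6569 in macrophages and 4578 and 5059 in microglia. mt-Co2, which takes electrons from cytochrome c, was at 7989 and 8977 CPM in B cells and 3685 and 4122 in macrophages, and mt-Co3, also of the core, at 10772 and 11395 and at 4041 and 4598. Microglia had 5331 and 5515 CPM of mt-Co3, so they were below macrophages for mt-Co1 and above them for mt-Co3 in both libraries.

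**Figure D3:**
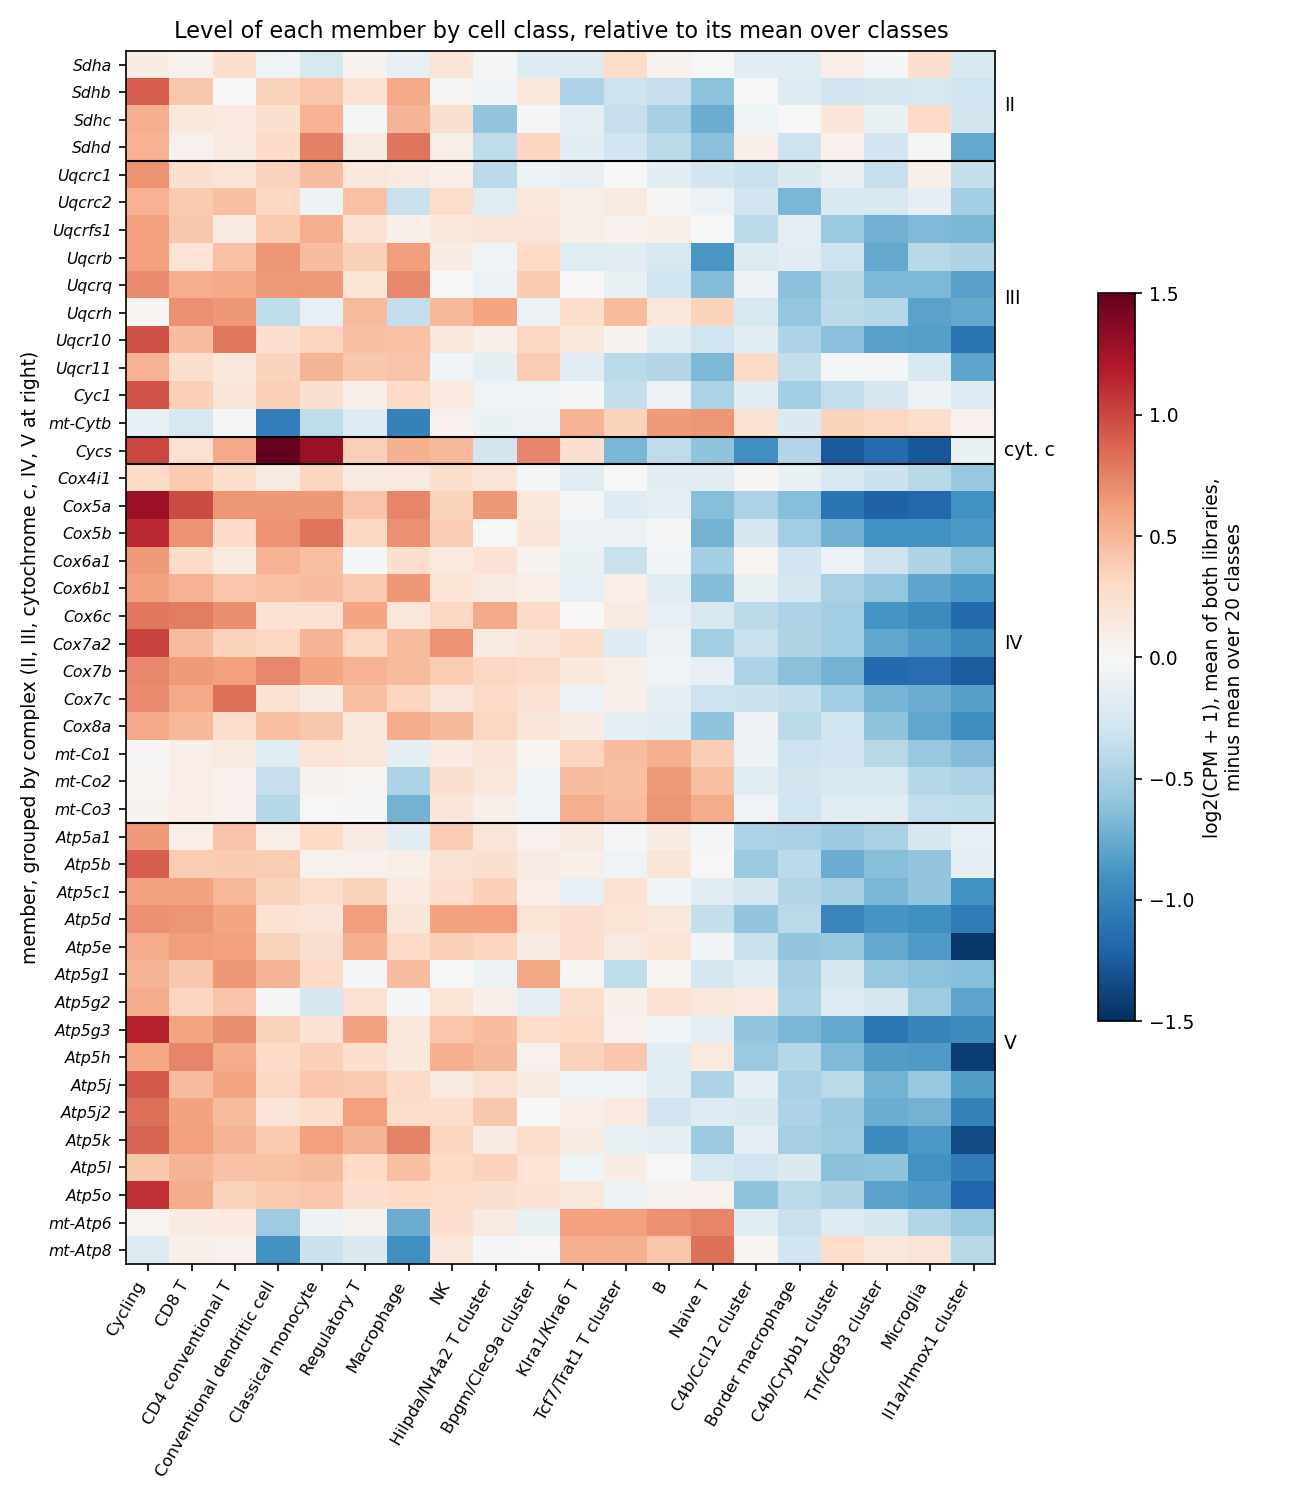
Level of each of the 44 members (y axis, grouped by complex) in 20 cell classes (x axis). Colour is the log2 CPM, averaged over the libraries, minus the member's mean over the 20 classes, with the deepest blue and red at 1.5 below and above it. Most nuclear members of complexes III, IV and V share a pattern of high cycling, CD8 T and CD4 conventional T cell columns and low microglial columns. By the nuclear sum, naive T cells are the lowest of the T cell columns. Sdha is nearly flat, and the mitochondrial rows (mt-) are high in naive T and B cells.

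Complex V members made up the largest part of nuclear member UMIs in naive T cells (46.1% and 45.6%), where complex IV had its smallest part (33.3% and 33.7%). Of the 8 widest spreads, 5 belonged to complex V. Atp5o, the stalk subunit that gives oligomycin sensitivity, spread 4.92-fold, from 62.1 and 81.9 CPM in the Il1a/Hmox1 cluster to 332 and 370 CPM in cycling cells. Atp5k, the e subunit, found where ATP synthases pair (5:108433244-108434448, minus strand), spread 4.69-fold between the same classes, from 54 and 73.1 CPM to 259 and 335. Atp5h, the d subunit of the stalk, and Atp5e, the epsilon subunit of the rotor, both ran from that cluster (151 and 161, and 208 and 260 CPM) to CD8 T cells (688 and 710, and 929 and 1031 CPM). The catalytic Atp5b stood at 463 and 496 CPM in CD8 T cells, 440 and 421 in NK cells, 382 and 454 in B cells, 382 and 397 in macrophages and 240 and 245 in microglia. mt-Atp6, the proton channel subunit, ran from 4349 and 5037 CPM in macrophages to 13005 and 13083 in naive T cells. mt-Atp8 (M:7766-7969, plus strand), a small subunit beside it, was counted far less often, with 72.1 and 87.1 CPM in macrophages and 262 and 277 in naive T cells. The genes of mt-Atp8 and mt-Atp6 share 43 bases and are read from 1 transcript, so how the counting divided their reads cannot be told.

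The proton-carrying ring of complex V is built from c subunits, and 3 genes encode the same mature protein with different import sequences. Atp5g2 held the most of their UMIs in every compared class, from 44.1% in the metformin Bpgm/Clec9a cluster to 66.1% in the metformin Tnf/Cd83 cluster. Naive T cells gave it 64.0% in control, and classical monocytes 47.5% in control and 47.3% in metformin. Atp5g1 took 34.3% and 35.3% in the Bpgm/Clec9a cluster and 32.3% and 31.7% in macrophages, against 19.8% and 20.6% in the Tcf7/Trat1 T cluster. Atp5g3 took 23.9% and 26.1% in cycling cells, against 12.3% and 10.6% in the Tnf/Cd83 cluster. As a level, Atp5g3 spread 4.78-fold, from 64.2 and 63.2 CPM in the Tnf/Cd83 cluster to 295 and 314 in cycling cells. The shares thus differed by class. Atp5g1 was high in macrophages and the Bpgm/Clec9a cluster, but not in the C4b/Ccl12 cluster (24% and 23.3%). Atp5g3 was high in dividing cells, and also in the Hilpda/Nr4a2 T cluster (24.3% and 21%). Atp5g2 was high in naive T cells and the Tnf/Cd83 cluster. Between libraries the share of Atp5g2 in conventional dendritic cells was 51.6% (interval 48.5 to 54.7) in control and 45.1% (43.0 to 47.3) in metformin, a difference beyond counting error.

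**Figure D4:**
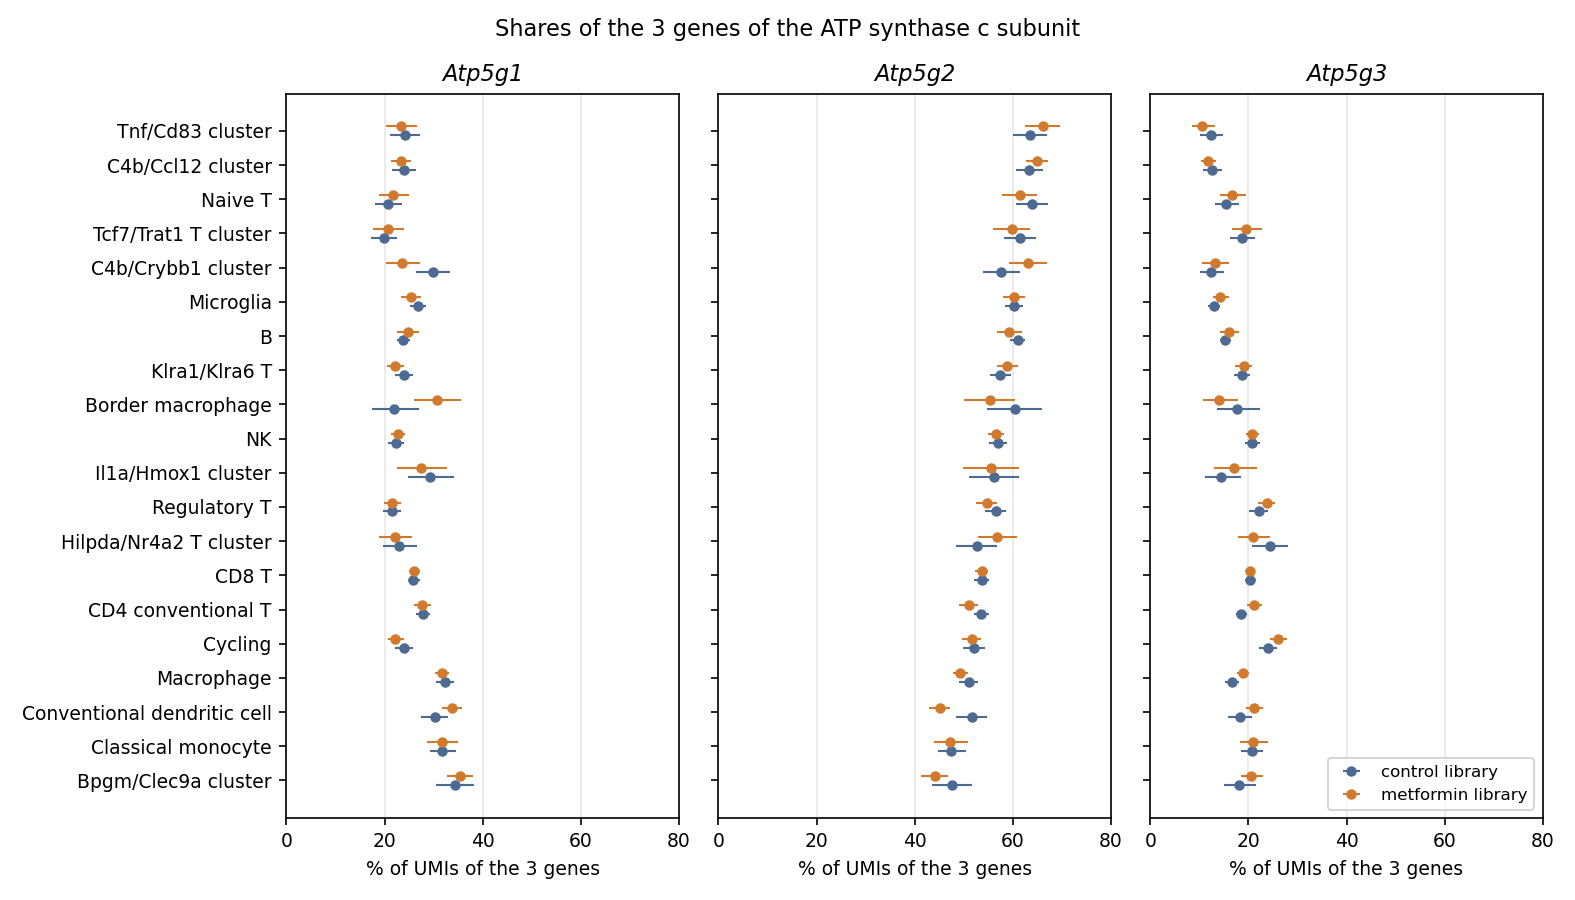
Share of the UMIs of Atp5g1, Atp5g2 and Atp5g3 (x axes, percent of the 3 genes' UMIs, 1 panel a gene) in 20 cell classes (y axis), with control in blue, metformin in orange and Clopper-Pearson 95% intervals as bars. Atp5g2 has the largest share throughout, between 44.1% and 66.1%, and Atp5g3 the smallest in most classes, reaching 26.1% in metformin cycling cells.

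Across the 20 classes, 22 of the 38 nuclear members had a correlation of at least 0.9 with the sum of the other nuclear members. Below that were all 4 members of complex II, 6 of complex III, 4 of complex V, Cox6a1 of complex IV and Cycs. The lowest were Sdha at 0.15, Sdhc at 0.34 and Sdhd at 0.61, then Uqcrh at 0.65, Uqcr11 at 0.66 and Uqcrc1 at 0.68. Among mitochondrial members, mt-Co1 reached 0.60. These describe 20 classes from the same 2 libraries, and the low counts of Sdhc bear on its value.

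The cells that the study's title turns on, the γδ T cells, were too few for the comparison (45 control and 43 metformin cells) and are described apart. Their nuclear sum was 10953 CPM in control and 11149 in metformin, near that of the Klra1/Klra6 T cells (11034 and 10678), and their mitochondrial sum 40743 and 44068 CPM. Sdha was at 101 and 93.7 CPM, Sdhb at 67.2 and 79.8, Cycs at 124 and 160 and Uqcrh at 639 and 715. Among mitochondrial members mt-Co2 was at 7095 CPM in control and 8387 in metformin, a ratio of 1.18 with a lower interval bound of 1.11. For both sums the γδ T cells thus lay near the Klra1/Klra6 T cells (mitochondrial sum 41891 and 43872 CPM). Their c subunit UMIs were 28.6% Atp5g1, 45.9% Atp5g2 and 25.5% Atp5g3 in control, and 29.4%, 41.6% and 29.0% in metformin.

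Between the libraries, single members differed little. Of 880 pairs of member and class, 867 reached 50 CPM and 20 UMIs in either library, and the 13 that did not were Sdhc in 12 classes and Sdhd in 1. By a rule of size (ratio of at least 1.5 and an interval without 1), 4 pairs were higher in metformin and none lower. Over all genes the same rule called 2.48% of 56395 pairs higher and 2.84% lower, so the members' share, 0.461% higher, was below the background. The median log2 ratio was 0.07 over the members' pairs, with 66.2% of pairs above 0, and -0.01 over all genes, with 47.7% above 0. With a ratio of at least 5 to 4 the rule called 58 members' pairs higher (6.69%) and 13 lower (1.5%), against 6.23% and 7.4% of all pairs. The members' share of higher pairs was thus near the background, and their share of lower pairs below it.

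Each of the 4 pairs rests on few counts. Uqcrc1, a core subunit of complex III, was at 53.7 CPM in control and 82.9 in metformin naive T cells, a ratio of 1.54 (1.09 to 2.19) from 60 and 80 UMIs. Cox5b, the zinc-binding subunit of complex IV, was at 131 and 213 CPM in the C4b/Crybb1 cluster, a ratio of 1.62 (1.31 to 2.02) from 148 and 216 UMIs. Atp5k in the same cluster was at 89.4 and 137 CPM, a ratio of 1.53 (1.18 to 2.0) from 101 and 139 UMIs. That cluster favoured metformin over all its genes, with a median log2 ratio of 0.14. mt-Atp8 was at 116 and 192 CPM in the Hilpda/Nr4a2 T cluster, a ratio of 1.65 (1.24 to 2.19) from 79 and 148 UMIs. Keeping the cells marked as doublets ended the calls of Cox5b (1.15), Atp5k (1.34) and Uqcrc1 (1.49). The call of Cox5b also ended at a clustering resolution of 0.6 (1.22) and in cells of middle depth (1.47), and that of Uqcrc1 with a mitochondrial limit of 20% (1.44) or none (1.45). mt-Atp8 had a ratio of 1.51 to 1.78 under the 11 alternatives that gave it a value.

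As sums, the nuclear members differed by more than counting error in 16 of the 20 classes: 12 were higher and 4 lower in metformin. Sums of many UMIs have narrow intervals, so small differences pass, also for other genes. The macrophage markers in microglia, for example, gave 0.953 (0.945 to 0.96). How often sums of other genes pass was not counted, so these class counts have no background. Conventional dendritic cells had the highest nuclear ratio, 1.18 (1.16 to 1.21), from 12125 to 14347 CPM. There 36 of 38 nuclear members had a ratio above 1, and complexes III, IV and V gave 1.16, 1.18 and 1.18. By the ratio of 5 to 4, 12 of the 44 members were higher, beside 12.9% of all genes in this class, and the median log2 ratio was 0.20 over members and 0.04 over all genes. They included Atp5g3 (144 and 207 CPM, 1.44), Cycs (407 and 577, 1.42), Atp5g1 (238 and 331, 1.39), Cox5b (378 and 519, 1.37), Atp5k (180 and 248, 1.37), Uqcrc2, a core subunit of complex III (104 and 142, 1.37) and Cox6c (450 and 594, 1.32). The nuclear sum of complex I was 4878 CPM in control and 5846 in metformin (1.2). Nuclear members of complexes III, IV and V were therefore all higher as sums in this class, while complex II (1.09, 0.968 to 1.24) did not differ beyond counting error and the mitochondrial sum had a ratio of 0.986. That mitochondrial ratio moved with the filter, to 1.11 without one and 1.02 with a limit of 20%.

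Several other values of the dendritic class moved with it. Its cells held more UMIs in metformin (median 14865 against 12280). The summed level of cDC1 markers was 2220 CPM in control and 3007 in metformin (9 of 10 markers higher), that of cell cycle markers 501 and 766 (10 of 11 higher), that of macrophage markers 4401 and 3038 (4 of 17 higher) and that of microglial markers 1397 and 754 (1 of 13 higher). Their part in the result was not tested. In the cells of middle depth the nuclear ratio was 1.14, with Cycs at 1.27. With the cells split evenly into 3 bins of depth, the nuclear sum was 11516 CPM in control and 10410 in metformin for the shallow cells, 11779 and 13252 for the middle cells and 12675 and 15766 for the deep cells. The shallowest cells thus had the lower level in metformin.

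Other myeloid classes split in direction. The C4b/Ccl12 cluster had a nuclear ratio of 1.15 (1.13 to 1.18) and the largest mitochondrial ratio, 1.23 (1.21 to 1.24), with mt-Co1 at 1.33. Its microglial markers were at 40071 CPM in control and 37618 in metformin (1 of 13 higher) and its macrophage markers at 45410 and 54493 (13 of 17 higher). The C4b/Crybb1 cluster had 1.12 (but 0.99 in its cells of middle depth), the Il1a/Hmox1 cluster 1.12 and the Bpgm/Clec9a cluster 1.13. Markers of other types moved with these too, and their part was not tested. In the Bpgm/Clec9a cluster B cell markers were at 16157 CPM in control and 559 in metformin (3 of 12 higher), neutrophil markers at 1225 and 116 (0 of 13) and cDC2 markers at 11989 and 19226 (9 of 12). Its erythroid markers, at 55697 and 50414 CPM (0 of 5 higher), were above all its other marker lists. The UMIs of that cluster were thus not of myeloid genes alone. In the C4b/Crybb1 cluster endothelial markers were at 40.7 and 529 CPM (6 of 6 higher), pericyte or fibroblast markers at 11.5 and 121 (3 of 6) and neuron markers at 810 and 38.4 (1 of 5). Macrophages had a nuclear ratio of 1.07 (1.06 to 1.09) and a mitochondrial ratio of 1.12 (1.11 to 1.13), led by mt-Cytb at 1.27, with median UMIs of 11534 and 14262. Microglia did not differ beyond counting error in the nuclear sum (0.985, 0.969 to 1.0). Within them complex II was the exception with 0.887 (0.82 to 0.96), and Sdha was at 0.856 (0.744 to 0.983).

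Classical monocytes were the class with the lowest nuclear ratio, 0.904 (0.885 to 0.924), and only 7 of 38 nuclear members were above 1. By the ratio of 5 to 4, 7 of the 44 members were lower, beside 11.6% of all genes in this class, and the median log2 ratio was -0.11 over members and -0.02 over all genes. Atp5a1, the alpha subunit of the ATP synthase head, was at 370 CPM in control and 254 in metformin (0.688). Atp5b, its catalytic partner, was at 437 and 334 (0.763), Cox5a at 428 and 331 (0.773) and Sdhb at 145 and 112 (0.776). The class is made of 2 clusters, and the difference lay in the smaller, led by Prtn3, Chil3 and F13a1 with 48 control and 44 metformin cells: 15744 against 12980 CPM (0.824). In the other cluster, of 94 and 59 cells, the ratio was 1.01. Microglial markers in the class were at 3663 CPM in control and 9847 in metformin (13 of 13 higher), and the monocyte markers at 26663 and 18780 (1 of 10 higher), and their part in the result was not tested. Direction turned when doublets were kept (1.05) and when the variable genes were drawn from all genes (1.07). Border macrophages, with 51 control cells, were also lower (0.937, 0.9 to 0.975), with Cox5a at 185 and 127 CPM (0.683).

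Regulatory, CD8, cycling and CD4 conventional T cells had higher nuclear sums in metformin. The nuclear ratio was 1.11 (1.09 to 1.12) in regulatory T cells, 1.09 (1.08 to 1.1) in CD8 T cells, 1.08 (1.06 to 1.1) in cycling cells and 1.05 (1.04 to 1.06) in CD4 conventional T cells. In CD8 T cells 34 of 37 members that passed the minimum were above 1, with Atp5k at 215 and 283 CPM (1.31), Sdhd at 63.1 and 79.9 (1.27) and Cox5b at 395 and 495. These were the 3 members past 5 to 4 in that class, where 3.97% of all genes were. The median log2 ratio there was 0.11 over members and -0.02 over all genes. The difference lay in the cluster led by Gzma, Cd8a and Gzmc, with 15083 against 16797 CPM (1.11) in 188 and 246 cells, whereas both other CD8 T clusters gave 1.01. That cluster, which had the highest level, held 188 of 507 control and 246 of 482 metformin CD8 T cells, so the class ratio also holds a shift in cluster shares. With the same cluster weights in both libraries it was 1.05. Other lymphoid classes gave lower ratios: naive T cells had 1.01 (0.981 to 1.04), the Tcf7/Trat1 T cluster 0.961 (0.936 to 0.987) and the Klra1/Klra6 T cells 0.968 (0.951 to 0.985), and NK cells had 1.01 (0.998 to 1.02). The difference between these classes was not tested.

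Depth and markers moved with the T cell values too. Median UMIs were 8524 in control and 9851 in metformin CD8 T cells, and 5802 and 6709 in regulatory T cells. Cell cycle markers were at 1043 and 1245 CPM in CD8 T cells (10 of 11 higher) and at 1131 and 1138 in regulatory T cells. Macrophage markers were at 313 and 661 CPM in CD8 T cells (12 of 17 higher) and at 624 and 878 in regulatory T cells (13 of 17), where plasma cell markers were at 381 and 166 (1 of 7). In the cycling class NK markers were at 1393 and 2900 CPM (9 of 13 higher), CD8 T markers at 3820 and 5205 (6 of 7) and microglial markers at 890 and 418 (1 of 13), so its make-up differed between the libraries. In cells of middle depth the nuclear ratio was 1.04 in CD8 T cells, 1.05 in regulatory T cells and 0.989 in CD4 conventional T cells, where the direction turned. That of the Tcf7/Trat1 T cluster turned to 1.01 there and to between 1 and 1.03 under 3 other settings. In bins of depth the CD8 T values were 11819 and 11619 CPM (shallow), 13589 and 14038 (middle) and 15936 and 17084 (deep). The part of depth and of these markers was not tested, and the nuclear sum was higher in deeper cells within each library.

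Regulatory T cells had a mitochondrial ratio of 0.919 (0.909 to 0.929). They were alone among the compared classes in having a nuclear ratio of at least 1.1 and a mitochondrial ratio under 0.95. Neither held under every setting: their mitochondrial ratio was 0.964 with the 5% limit and their nuclear ratio 1.05 in cells of middle depth. Conventional dendritic cells had a mitochondrial ratio of 0.907 in cells of middle depth. Mature dendritic cells, too few in control to compare (42 cells), had a nuclear ratio of 1.17 and a mitochondrial ratio of 0.806. The mitochondrial sum of regulatory T cells was 32450 CPM in control and 29817 in metformin, with mt-Cytb at 2701 and 2210. B cells went the other way in size: the nuclear ratio was 1.05 (1.03 to 1.07) and the mitochondrial ratio 1.09 (1.08 to 1.1), with mt-Cytb at 4032 and 4679 CPM. The nuclear ratio was 1.14 in 1 of the 3 B cell clusters (344 control and 83 metformin cells), 0.973 in another (155 and 82) and 1.03 in the last (157 and 84). Microglial markers in B cells were at 399 and 841 CPM (12 of 13 higher) and macrophage markers at 1436 and 2370 (14 of 17 higher), and their part was not tested. With the 5% mitochondrial limit the B cell mitochondrial ratio was 0.972, so its direction turned with that filter.

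**Figure D5:**
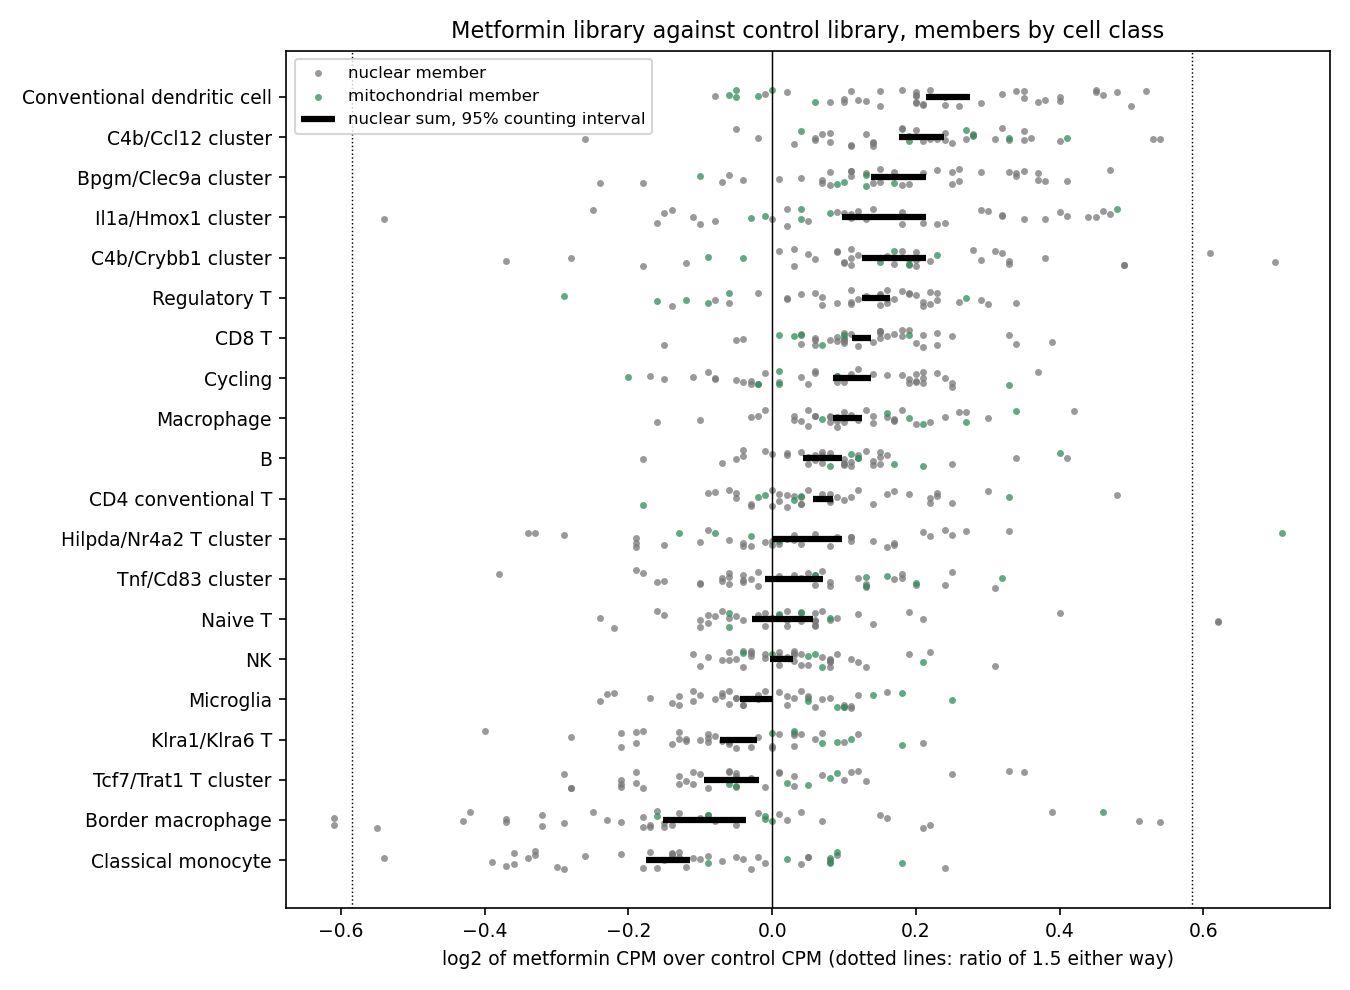
Log2 of metformin CPM over control CPM (x axis) for each member that passed the minimum (points, nuclear and mitochondrial members in different colours, spread vertically at random for visibility) in 20 cell classes (y axis), ordered by the nuclear ratio. Black bars are the 95% counting interval of the nuclear sum, and dotted lines mark a ratio of 1.5 either way. Nearly all points lie between the dotted lines, and the classes run from classical monocytes (nuclear ratio 0.904) to conventional dendritic cells (1.18).

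Some members leaned to metformin in most classes, although classes share the 2 libraries and are not replicates. mt-Atp8 was higher in metformin in 19 of 20 classes, with an interval above 1 in 11 and a median ratio of 1.18. Atp5k was higher in 18, with an interval above 1 in 13, a median of 1.23 and a range from 0.96 in the Tcf7/Trat1 T cluster to 1.53. Atp5e was higher in 18, with an interval above 1 in 11 and a median of 1.12. All 3 belong to complex V and encode very small proteins. Of 1153 genes that passed the minimum in every class, 2.69% were higher in at least 18 classes and 1.47% lower in as many; of the 42 members that did, these 3 are 7.14% and none was lower. Members just under 18 classes were not of complex V alone. mt-Co1 of complex IV was higher in 17 classes, with an interval above 1 in 15 and below 1 in 3. Its median ratio was 1.06. Atp5j2 of complex V and Cox6b1 and Cox7c of complex IV were also higher in 17. The share of all genes higher in 17 or more classes was not counted, so the counts of 17 have no background. mt-Cytb leaned the other way, lower in 13 classes and higher in 7, and Cycs was split, higher in 9.

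Genes around the 4 complexes were counted by the same rule of 1.5, which called 2.48% of all pairs higher and 2.84% lower. Complex I (43 genes) had 7 pairs higher (0.876%) and 5 lower (0.626%) among 799, with a median log2 ratio of 0.04. The higher pairs included mt-Nd3 in macrophages (203 and 326 CPM, 1.61) and Ndufa3 in the C4b/Crybb1 cluster (69 and 117, 1.7). Of 14 further subunits and tissue isoforms, 5 passed the minimum, with 2 pairs higher and none lower, both in conventional dendritic cells. These were Atpif1, the inhibitor of ATP hydrolysis by complex V (359 and 547 CPM, 1.52), and Ndufa4, a subunit now placed with complex IV (168 and 267, 1.59). The dendritic class, where the nuclear members were highest in metformin, thus also held both calls of this list.

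Assembly factors of complexes II to V (33 genes, 13 past the minimum) had 5 pairs higher (3.09%) and 2 lower (1.23%) among 162. Cox17, a copper chaperone of complex IV, was at 62.8 and 111 CPM in the C4b/Crybb1 cluster (1.77), and Sdhaf1, an assembly factor of complex II, at 62 and 31 CPM in cycling cells (0.5). Surf1, which helps build complex IV, was called in opposite directions, 1.51 in regulatory T cells and 0.491 in the Bpgm/Clec9a cluster. Genes for the expression of mitochondrial DNA and its regulators (19 genes, 7 past the minimum) had 2 pairs higher (3.33%) and 1 lower (1.67%) among 60. In the tricarboxylic acid cycle list (19 genes, 15 past the minimum) no pair was higher and 8 of 189 (4.23%) were lower, above the share of all genes, among them Idh2, the mitochondrial NADP-dependent isocitrate dehydrogenase, in classical monocytes (74.3 and 30.2 CPM, 0.406). Glycolysis (18 genes, 15 past the minimum) had 2 pairs higher, among them the glucose transporter Slc2a1 in the C4b/Crybb1 cluster (28.3 and 73.8 CPM, 2.61), and 2 lower among 228 (0.877% each). The glycolysis sum of macrophages, 1 of the 20 classes, was 7674 CPM in control and 6606 in metformin, a ratio of 0.861. Over all 228 pairs of the glycolysis list the median log2 ratio was 0.01, with 51.3% above 0. None of these lists had a median log2 ratio beyond 0.06 in either direction.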

How the data were processed

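The deposited UMI counts per gene and barcode (Cell Ranger, Seurat and mm10 per the submitters' processing notes; matrix software 3.0.0 per the file headers) were used as raw counts; the annotation and aligner settings are not given in the sources used here. Barcodes with under 300 genes (92 control, 151 metformin) or over 10% mitochondrial UMIs (647 and 716) were left out, then doublets marked by Scrublet at an assumed rate of 5% (62 and 37). In all, 9 barcodes occur in both libraries, 8 of them in retained cells.

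Cells were clustered (scanpy 1.11.5, python-igraph 0.11.9, Leiden, 30 components, 15 neighbours, resolution 1.0, then 1.5 within lymphoid and myeloid cells). The 2000 variable genes left out members, complex I and the other lists of genes around the complexes. They also left out mitochondrial, ribosomal, haemoglobin and sex-specific genes. Clusters were named from fixed markers: at least 3 detected, and no more of another type among the 10 leading genes. UMIs were summed per class and library and scaled to 1000000 UMIs of the class. Intervals used scipy 1.17.1 with Python 3.11.15; counting and the size rule were tested on simulated data. Members and lists were chosen with earlier results of these data known. Members named are all calls by the size rule (up to 5 a class and direction), the 8 widest spreads, 22 chosen by role, and others chosen after their values were seen. Places are from GENCODE M21. Alternatives changed the mitochondrial and gene filters, doublets, CPM denominator, cell weights, richest cell, depth range, clustering and size rule; leaving out shared barcodes was added after seeing the data.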

Additional observations from a re-analysis of the deposited data

Results flagged for a closer look

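The nuclear members differed in direction between classes: the summed ratio of metformin to control was 1.18 in conventional dendritic cells, where 36 of 38 members were higher, and 0.904 in classical monocytes, where 7 of 38 were. The median log2 ratio was 0.20 over all members and 0.04 over all genes in the dendritic cells, and -0.11 and -0.02 in the monocytes. The monocyte ratio was 0.824 in the smaller cluster and 1.01 in the other. Its direction turned with doublets kept and with variable genes from all genes (1.07). The difference between these classes was not tested. The mitochondrial members likewise had a summed ratio of 1.23 in the C4b/Ccl12 cluster and 0.919 in regulatory T cells, and that difference was not tested either.

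Signal was also present in barcodes that the comparisons leave out. Those over the limit of 10% mitochondrial UMIs (647 in control and 716 in metformin, medians of 2333 and 2373 UMIs) held nuclear members at 6111 CPM in control and 7222 CPM in metformin, below the level of most classes, and mitochondrial members at 139552 and 140532 CPM.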

How the results depend on the processing

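No paired analysis was possible because each group is 1 library. Counts moved most with the rules. Against 4 higher and 0 lower pairs by the size rule, 9 higher and 1 lower were called without a mitochondrial filter, 9 higher with a limit of 5%, 11 higher and 4 lower with the mean of per-cell CPM, 11 higher without the richest cell of each gene, 2 lower with doublets kept, 2 lower in cells of middle depth, 1 lower at resolution 0.6, and 58 higher and 13 lower with a ratio of 5 to 4. Against 12 classes with a higher and 4 with a lower nuclear sum, cells of middle depth gave 6 and 1 of 14 classes, and the lower count was 2 with the 5% limit and 2 with variable genes from all genes. Classes above 10000 CPM of nuclear members were 12, and 7 in cells of middle depth. Classes with over 3 mitochondrial UMIs per nuclear UMI were 10, and 3 with the 5% limit.

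Of 264 ratios of nuclear sums over 14 settings, 220 stayed within the counting interval of the reported value and 9 changed direction; of 264 mitochondrial ratios 153 did and 17 changed. A change was counted only where the reported interval excluded 1. Sums at about 1 also crossed it: without a mitochondrial filter the mitochondrial ratio was 1.11 in conventional dendritic cells, 1.16 in naive T cells and 1.04 in CD4 conventional T cells. Without a mitochondrial filter, mitochondrial ratios turned to 1.11 in border macrophages, 1.04 in the Hilpda/Nr4a2 and 0.974 in the Il1a/Hmox1 cluster. With a limit of 20% they turned to 1.03, 1.06 and 0.984, and the Hilpda/Nr4a2 nuclear ratio to 0.994. With 5%, mitochondrial ratios turned to 0.972 in B cells and 0.909 in classical monocytes, and the Tcf7/Trat1 nuclear ratio was 1. With doublets kept, mitochondrial ratios were 0.98 (Bpgm/Clec9a), 1.04 (Hilpda/Nr4a2) and 0.994 (Il1a/Hmox1), and the nuclear ratio 1.05 in classical monocytes. With variable genes from all genes, nuclear ratios were 1.07 (classical monocytes) and 1.01 (Tcf7/Trat1), and mitochondrial ratios 1.02 (Hilpda/Nr4a2) and 0.99 (Il1a/Hmox1). At resolution 0.6, the Hilpda/Nr4a2 mitochondrial ratio was 1.02 and the Tcf7/Trat1 nuclear ratio 1.03. By per-cell mean, mitochondrial ratios were 1.08 (border macrophages), 0.978 (Bpgm/Clec9a) and 1.02 (Hilpda/Nr4a2). In cells of middle depth, nuclear ratios were 0.99 (C4b/Crybb1), 0.989 (CD4 conventional T) and 1.01 (Tcf7/Trat1). The cause of these changes was not tested. Leaving out the barcodes found in both libraries, added after seeing the data, changed no count or direction given here.

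Depth limits single members: at 20 to 100 UMIs a counting interval spans about the size of the rule itself.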

Other observations

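The tissue isoform Cox6a2, known as the heart and muscle form of a complex IV subunit, was high in plasmacytoid dendritic cells, which were too few to compare (21 cells in control). Cox6a2 was itself 1 of the 13 fixed markers that named this class, and 1 of its 10 leading genes. A high level there was therefore partly given by the naming. It was at 1568 CPM in control and 1707 CPM in metformin there, from 453 and 831 UMIs. The common isoform Cox6a1 was at 253 and 249 CPM in the same cells. The next classes for Cox6a2 were the C4b/Ccl12 cluster (42.7 and 46.4 CPM), the Tnf/Cd83 cluster (22.5 and 21.1) and NK cells (15.5 and 13.2). Cox6a2 was therefore several times more abundant than Cox6a1 in UMIs only in the plasmacytoid class among those named here, in both libraries, although capture can differ between genes.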
